A study of Mus musculus with 4 samples.

Results

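The comparison described here set the unloaded heart of a cardiac knockout mouse against the pressure-loaded heart of a control mouse. It was chosen by label as the diagonal pair of a design with 2 genotypes and 2 states, and so used 2 of the 4 libraries of the study, each with values for the same 12408 genes. Its question was which genes of the loaded control heart stood at the same level in the unloaded knockout heart, and which did not. All 4 mice were C57BL/6, 3 months old, and RNA came from heart. The control heart, labelled CT TAC, carried WW45 flox/flox alleles without Cre and had undergone transverse aortic constriction (TAC) for 4 weeks. The knockout heart, labelled WW45cKO and called cKO baseline here, carried WW45 flox/flox with alpha-MHC-CRE and had no constriction. The alpha-myosin heavy chain promoter drives Cre in cardiomyocytes, so other cells of the heart keep the floxed gene intact. The remaining libraries were a control at baseline, labelled CT and called CT baseline, and a knockout after 4 weeks of constriction, labelled WW45cKO TAC and called cKO TAC. Both genotypes shared the floxed alleles. No library was labelled as sham-operated or as Cre without floxed alleles, so load and operation, or Cre and deletion, cannot be told apart. Each group held 1 mouse, so spread between mice was not measured, and since the pair differs in genotype and surgery at once, their parts cannot be told apart.

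TAC narrows the aorta, raises the pressure against which the left ventricle pumps, and leads to hypertrophy, a return of fetal cardiomyocyte genes and deposition of matrix by fibroblasts. WW45, listed under its symbol Sav1, is the scaffold of the Hippo kinases. These kinases act through Lats to keep the co-activators YAP and TAZ out of the nucleus, and in the absence of that brake YAP binds TEAD factors at their targets. The adult heart responds to both stretch and loss of Hippo signalling, with natriuretic peptides, ankyrin repeat proteins and secreted matrix proteins among the well known genes of the response.

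The CT TAC library held 2064655 reads and the cKO baseline library 1587840, with medians of 36.6 and 30 reads a gene. CT baseline held 2796547 and cKO TAC 1772153. One read was worth between 0.371 and 0.612 counts per 1000000 reads (CPM), and intervals below are 95% counting intervals that leave out variation between mice. Ratios are CPM in cKO baseline over CPM in CT TAC, and log2 differences are taken from the deposited values, which understate the ratio of genes with few reads. A value in parentheses after a gene name is its log2 difference, cKO baseline minus CT TAC, unless it is called a ratio. A gene was called apart, higher or lower in cKO baseline, when it differed by at least 2-fold and its ratio interval excluded 1. It was called within 2-fold when the whole interval lay between a 2-fold fall and a 2-fold rise, and undecided at this depth otherwise. All 10 cardiomyocyte markers, the defining genes of the labelled tissue, were measured and within 2-fold in the pair.

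Sav1 itself (mm10 chromosome 12, 69965012 to 69987002) had 49.3 CPM at baseline and 35.4 after TAC in the CT hearts, with 39.8 at baseline and 46.2 after TAC in the cKO hearts. Its ratio in the pair was 1.12 (interval 0.789 to 1.59), within 2-fold. Both cKO libraries thus lay below CT baseline and above CT TAC for the targeted gene, so its order did not follow genotype. Values summed over a gene do not show whether the floxed exons were lost. Group names below therefore stand for libraries as labelled.

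Of 12408 genes, 962 (7.75%) were apart between cKO baseline and CT TAC. Higher in cKO baseline were 431 genes (3.47%) and lower were 531 (4.28%). A further 4655 genes (37.5%) were within 2-fold, and the intervals of 3504 of these included 1. The other 6791 genes (54.7%) were undecided. The median log2 difference over all genes was 0.01. With libraries scaled to total reads that median moved by 0.08 and the split turned to 560 higher and 424 lower, so that 56.9% of apart genes were higher in place of 44.8%. Depth set how many genes could be placed. None of the genes with a mean under 10 reads in the pair was within 2-fold, against 54.7% of those with 30 to 100 reads and 90.4% of those above 1000 reads.

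**Figure D1:**
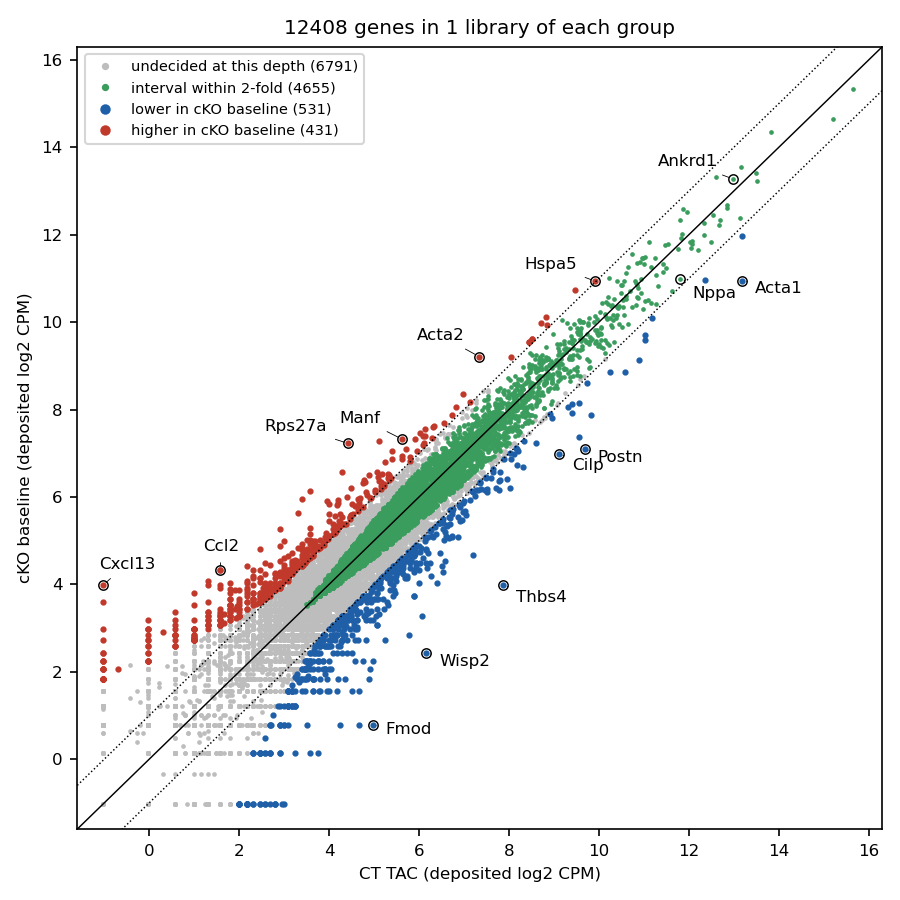
Deposited log2 CPM of 12408 genes in cKO baseline (vertical axis) against CT TAC (horizontal axis), 1 library each. The solid line marks equal values and the dotted lines 2-fold, with colours for the 431 higher, 531 lower, 4655 within 2-fold and 6791 undecided genes. Thbs4, Postn and Acta1 lie far below the line, Ankrd1 near it, and Cxcl13 and Ccl2 above it.

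The genes furthest above CT baseline in CT TAC were mostly well below CT TAC in cKO baseline. CT TAC enters both of these comparisons. Genes chosen for an extreme value in CT TAC tend to differ from that library in any other. The choice by itself raises the share apart and lowers the share within 2-fold. The counts that follow, and their contrast with all genes, are therefore descriptions. Between CT TAC and CT baseline 1333 genes (10.7%) were apart. Of the 752 that were higher in CT TAC, 253 were lower in cKO baseline than in CT TAC, 86 were within 2-fold of it, 2 were higher and 411 were undecided. Of the 581 that were lower in CT TAC, 193 were higher in cKO baseline than in CT TAC, 64 were within 2-fold, none was lower and 324 were undecided. In all, cKO baseline was within 2-fold of CT TAC for 150 of the 1333 load genes (11.3%), beside 37.5% of all genes. It was apart for 448 (33.6%), beside 7.75% of all genes, and 735 were undecided.

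Among the 20 genes with the largest excess in CT TAC over CT baseline, 17 were lower in cKO baseline than in CT TAC. Nppa and Sumo2 were within 2-fold, and Lrp8, a lipoprotein receptor, was undecided. Lrp8 had 1 read at baseline and 20 after TAC in the CT hearts, and 13 and 10 in the cKO hearts. Sumo2, a small protein that is joined to other proteins, had 3, 83, 50 and 61 reads in the same order, a value made uncertain by processed copies of the gene. On the other side, of the 20 genes with the largest deficit in CT TAC, 9 were higher in cKO baseline than in CT TAC and 11 were undecided. Lrrc52, an auxiliary subunit of potassium channels, was among the undecided. Its values were 2.45 CPM in cKO baseline beside 2.5 in CT TAC, and 97.9 in CT baseline beside 17.4 in cKO TAC, so both hearts of the pair stood at a few reads. Ces1d, a carboxylesterase that hydrolyses triglycerides, was among the 9. It had 265 CPM at baseline and 33.9 after TAC in the CT hearts, with 154 at baseline and 42.4 after TAC in the cKO hearts, which made it 4.54-fold higher in cKO baseline than in CT TAC (interval 3.46 to 6.03).

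**Figure D2:**
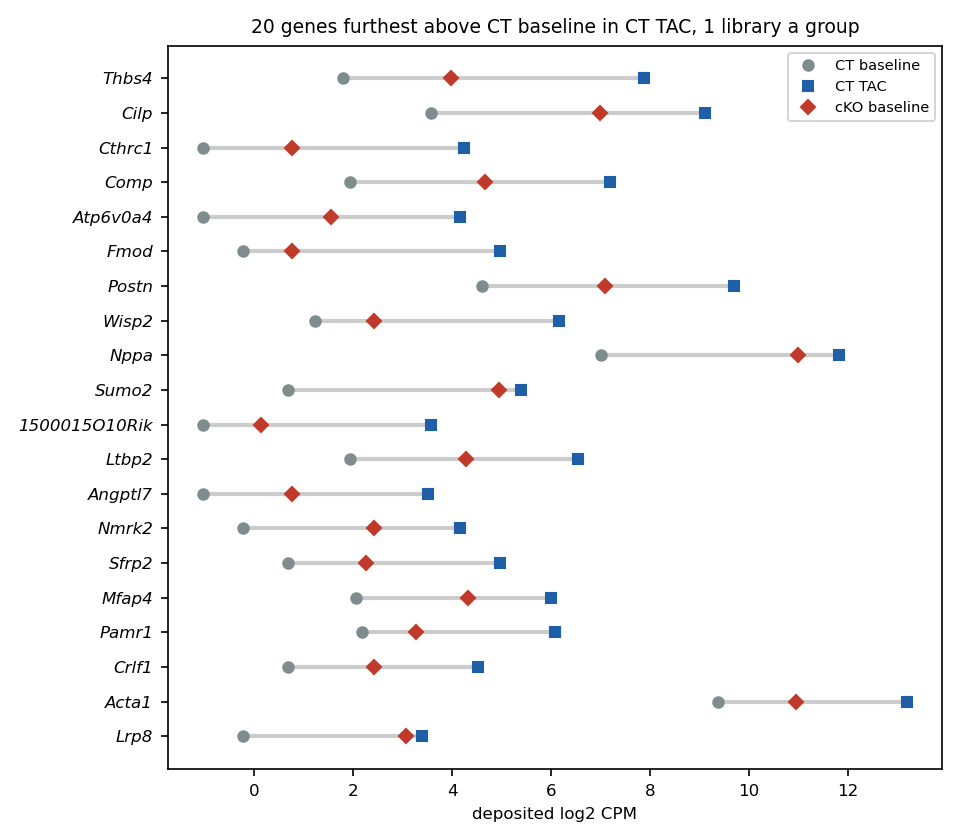
Deposited log2 CPM of the 20 genes with the largest excess of CT TAC over CT baseline, for CT baseline (circles), CT TAC (squares) and cKO baseline (diamonds), 1 library each. In all 20 rows the diamond lies between the circle and the square, close to the square for Nppa, Sumo2 and Lrp8 and nearer the circle for Fmod and Wisp2.

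The stress and fetal genes of cardiomyocytes differed in class in the pair. Of 22 measured, 14 were within 2-fold, 3 were lower in cKO baseline, 5 were undecided and none was higher. Over all genes 37.5% were within 2-fold, and 90.4% of those above 1000 reads. A place within 2-fold of CT TAC does not by itself mean the loaded level. Myh7 and Cryab were also within 2-fold between CT TAC and CT baseline. The median log2 difference of the list was -0.15, beside 0.01 over all genes. Against CT baseline the medians of the list were 0.86 in CT TAC and 0.67 in cKO baseline. Nppa (mm10 chromosome 4, 148000722 to 148002079), which encodes atrial natriuretic peptide, had 2035 CPM in cKO baseline beside 3594 in CT TAC, and 129 in CT baseline beside 6487 in cKO TAC. With a ratio of 0.566 (interval 0.543 to 0.59), cKO baseline lay below CT TAC for Nppa though within 2-fold of it, and both lay far above CT baseline. Nppb, which encodes brain natriuretic peptide, had 171 CPM at baseline and 1066 after TAC in the CT hearts, with 949 at baseline and 1602 after TAC in the cKO hearts. Its ratio was 0.89 (interval 0.833 to 0.951), and part of its reads were shared with other genes or positions. The beta-myosin heavy chain gene Myh7 had 5194 CPM in cKO baseline beside 6611 in CT TAC, and 4459 in CT baseline beside 8004 in cKO TAC. Its ratio was 0.786 (interval 0.764 to 0.807).

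Ankrd1 (mm10 chromosome 19, 36111961 to 36120099) encodes a titin-binding ankyrin repeat protein of the sarcomere that is also a YAP target. It had 827 CPM at baseline and 8081 after TAC in the CT hearts, with 9962 at baseline and 8624 after TAC in the cKO hearts. CT baseline stood alone at the bottom, and the other libraries lay close together. The ratio in the pair was 1.23 (interval 1.21 to 1.26), from 16286 reads in cKO baseline and 16189 in CT TAC. Synpo2l, a Z-disc protein, had 308 CPM in cKO baseline beside 279 in CT TAC, and 83.8 in CT baseline beside 306 in cKO TAC. Some of its reads were shared. Further members within 2-fold were Csrp3 (ratio 1.07), a muscle LIM protein, Flnc (ratio 1.17, partly shared reads), which encodes filamin C, and the small heat shock protein gene Cryab (ratio 0.591). Cryab had 5375 CPM in cKO baseline beside 9094 in CT TAC, and 4898 in CT baseline beside 6747 in cKO TAC. Its cKO baseline value thus lay nearer to CT baseline than to CT TAC.

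Skeletal alpha-actin stood apart from the members within 2-fold. Acta1 had 661 CPM at baseline and 9347 after TAC in the CT hearts, with 1976 at baseline and 2906 after TAC in the cKO hearts. CT TAC was the highest of the 4, and cKO baseline was at 0.211 of it (interval 0.204 to 0.219). The actin genes have near-identical coding sequences, so reads can be assigned to the wrong one and their values are uncertain. Acta1 and the smooth muscle actin genes Acta2 and Actg2 held no shared reads, which does not show that reads were assigned correctly. Xirp2, an actin-binding protein of the intercalated disc with partly shared reads, had 2000.5 CPM in cKO baseline beside 5292 in CT TAC, and 1100.2 in CT baseline beside 3204 in cKO TAC. It was lower in cKO baseline (-1.40). Nmrk2, a nicotinamide riboside kinase, was also lower (-1.74), with 35 reads in CT TAC and 8 in cKO baseline, beside 1 in CT baseline and 14 in cKO TAC.

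**Figure D3:**
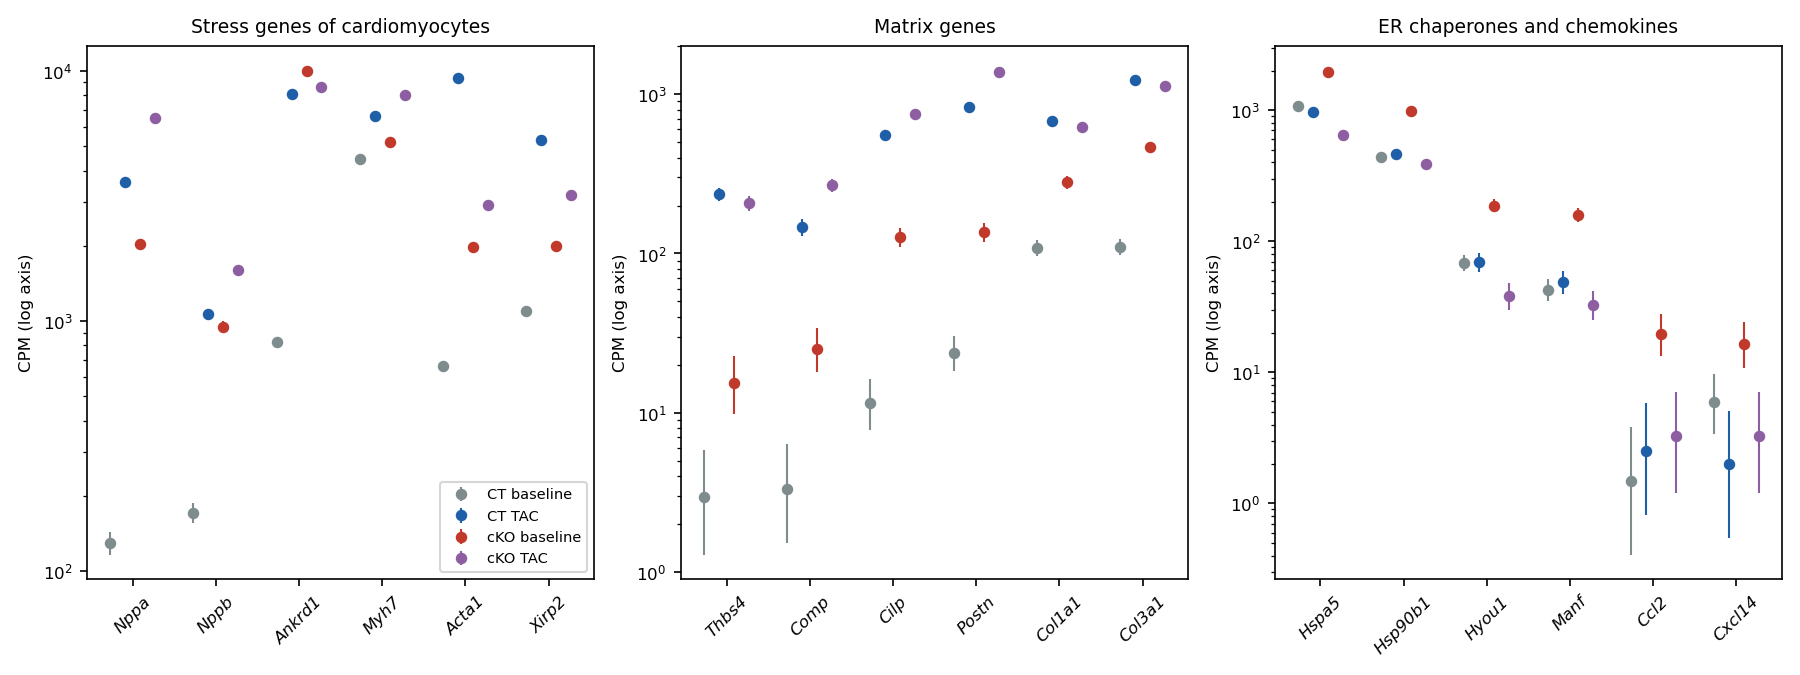
CPM (log axis) in the 4 libraries for 6 stress genes, 6 matrix genes and 6 genes of endoplasmic reticulum (ER) chaperones and chemokines, with bars for 95% counting intervals that are hidden by the point where reads are many. For Nppa, Nppb and Ankrd1 cKO baseline lies near CT TAC, for the matrix genes it lies between CT baseline and CT TAC, and for the chaperones and chemokines it is the highest library.

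YAP/TEAD targets were spread over all classes. Of 22 measured, 9 were within 2-fold, 2 were higher, 2 were lower and 9 were undecided, with a median of 0.29. Ctgf, a secreted CCN protein and the usual readout of YAP, had 81.2 CPM at baseline and 291 after TAC in the CT hearts, with 354 at baseline and 852 after TAC in the cKO hearts, a ratio of 1.22 (interval 1.08 to 1.37). Its relative Cyr61 had 81.4 CPM in cKO baseline beside 118 in CT TAC, and 94.2 in CT baseline beside 126 in cKO TAC. It was within 2-fold as well (ratio 0.691). Higher in cKO baseline were Amotl2 (1.62), an angiomotin that binds YAP, and the exchange factor gene Arhgef17 (1.11). Amotl2 had 88.6 CPM at baseline and 29.0 after TAC in the CT hearts, with 89.9 at baseline and 75.0 after TAC in the cKO hearts. For Amotl2 it was CT TAC that stood below the other libraries. Lower were Igfbp3 (-1.54), a binding protein of insulin-like growth factors, and Myof (-1.44), a membrane repair protein. Of 21 Hippo pathway components none was apart, 6 were within 2-fold and 15 were undecided. Yap1 had 82.6 CPM in cKO baseline beside 124 in CT TAC, and 116 in CT baseline beside 87.6 in cKO TAC, and the ratio in the pair was 0.667 (interval 0.537 to 0.826).

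TEAD factors bind the M-CAT element, and 2 genes of the pair that carry matches to it fell on different sides. The promoter letters are from RefSeq (GRCm38.p6), with the 250 bases before the annotated start printed 5′ to 3′ on the gene's strand and matches to GGAATG or its reverse complement CATTCC in capitals. Ankrd1 is shown because it was near the loaded level, and the matricellular gene Thbs4 because it was far below it. The windows are chr19:36119845-36120094 for Ankrd1 and chr13:92794819-92795068 for Thbs4, both on the minus strand.
Ankrd1: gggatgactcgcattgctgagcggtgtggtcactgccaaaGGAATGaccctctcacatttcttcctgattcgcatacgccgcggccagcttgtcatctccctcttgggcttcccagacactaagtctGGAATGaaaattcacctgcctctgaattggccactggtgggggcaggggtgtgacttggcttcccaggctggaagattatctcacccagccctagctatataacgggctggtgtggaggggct
Thbs4: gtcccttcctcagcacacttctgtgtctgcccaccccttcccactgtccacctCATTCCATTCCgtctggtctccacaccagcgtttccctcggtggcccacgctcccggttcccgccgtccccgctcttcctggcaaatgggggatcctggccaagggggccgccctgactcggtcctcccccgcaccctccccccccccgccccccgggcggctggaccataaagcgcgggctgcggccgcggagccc
Each window held 2 matches, which overlap by 1 base in Thbs4. Over 300-base windows that also take in 50 bases after the start, 4817 of 32851 promoters (14.7%) held a match. Among YAP/TEAD targets 7 of 15 genes with a promoter in the RefSeq set did, and among stress and fetal genes 6 of 19, with none in the window of Nppa. Among matricellular proteins 1 of 10 did, and that one was Thbs4. Of the genes higher in cKO baseline 14.3% held a match and of those lower 14.9%. A match is a description of letters only.

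Among the 25 pathway lists the 3 with the lowest medians were of secreted matrix proteins. Of 24 matricellular proteins, which sit in the matrix and signal to cells, 9 were lower in cKO baseline, 7 were within 2-fold, 8 were undecided and none was higher. Their median log2 difference was -0.77, and against CT baseline it was 1.84 in CT TAC and 1.16 in cKO baseline. Thbs4 (mm10 chromosome 13, 92751590 to 92794818), a thrombospondin of stressed muscle, had 8 reads at baseline and 470 after TAC in the CT hearts, and 25 at baseline and 379 after TAC in the cKO hearts. In CPM, in the same order, this was 2.97, 235, 15.3 and 206, and the ratio in the pair was 0.0652 (interval 0.0417 to 0.0974). Both TAC libraries were far above both baseline libraries. Comp, a thrombospondin of cartilage and tendon, had 3.34 CPM at baseline and 146 after TAC in the CT hearts, with 25.1 at baseline and 268 after TAC in the cKO hearts. Cilp, known from the intermediate layer of cartilage, had 127 CPM in cKO baseline beside 556 in CT TAC, and 11.5 in CT baseline beside 753 in cKO TAC. For Comp and Cilp cKO baseline was again intermediate, and the log2 differences from CT TAC were -2.52 and -2.13.

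Wisp2, a CCN protein without the C-terminal domain of its relatives, had 143 reads in CT TAC and 8 in cKO baseline, beside 5 in CT baseline and 191 in cKO TAC. Its ratio in the pair was 0.0686 (interval 0.029 to 0.139). Postn, which encodes periostin of activated fibroblasts, had 23.7 CPM at baseline and 826 after TAC in the CT hearts, with 136 at baseline and 1368 after TAC in the cKO hearts, with part of its reads shared (-2.60). Sparc, a collagen-binding glycoprotein, had 559.7 CPM in cKO baseline beside 1895 in CT TAC, and 361 in CT baseline beside 1609 in cKO TAC (-1.76). Mfap4 (-1.67), Mfap5 (-1.05), both of microfibrils, and Cthrc1, with 37 reads in CT TAC and 2 in cKO baseline, were also lower. Tnc and Thbs1, which encode tenascin C and thrombospondin 1, were undecided. Tnc had 27 reads in cKO baseline and 20 in CT TAC, and Thbs1 had 74 and 47.

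Collagens followed a like order. Of 21 measured, 8 were lower in cKO baseline, 7 were within 2-fold, 6 were undecided and none was higher, with a median of -0.96. With the genes at 0 reads in 1 library set to their bound the median was -0.67. The fibrillar chain genes Col1a1, Col1a2 and Col3a1 were all lower. Col1a1 had 109 CPM at baseline and 676 after TAC in the CT hearts, with 280.1 at baseline and 622 after TAC in the cKO hearts (ratio 0.414, interval 0.372 to 0.461). Col3a1 had 464 CPM in cKO baseline beside 1224 in CT TAC, and 109 in CT baseline beside 1121 in cKO TAC (ratio 0.379, interval 0.349 to 0.411). Both TAC libraries were highest for these chains and CT baseline was lowest. Col8a1, a short-chain collagen of vessels and scar, was lower by more (-2.04). The main chains of basement membrane collagen, Col4a1 and Col4a2, were within 2-fold. Col4a1 had 328 CPM at baseline and 387 after TAC in the CT hearts, with 463 at baseline and 423 after TAC in the cKO hearts. Col4a2 had 516 CPM in cKO baseline beside 363 in CT TAC, and 375 in CT baseline beside 433 in cKO TAC. Col4a3 was at least 2.99-fold lower, with 0 reads in cKO baseline and 11 in CT TAC (3 reads taken as the floor of a library at 0).

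Of 10 small leucine-rich proteoglycans, which bind collagen fibrils, 5 were lower, 4 were within 2-fold and 1 was undecided. Their median was -1.22. Fmod had the lowest log2 difference among genes with at least 20 reads, with 62 reads in CT TAC and 2 in cKO baseline, beside 1 in CT baseline and 53 in cKO TAC. Aspn (-1.77), Lum (-1.35), Ecm2 (-1.30) and Bgn (-1.14) were the other lower members. Dcn, the decorin gene, had 1072 CPM at baseline and 2284 after TAC in the CT hearts, with 1392 at baseline and 2919 after TAC in the cKO hearts. It was within 2-fold (ratio 0.609). Ogn, which encodes osteoglycin, had 79.5 CPM in cKO baseline beside 78.4 in CT TAC, and 44.9 in CT baseline beside 77.8 in cKO TAC, so that 3 libraries agreed closely and CT baseline was lower.

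Of 28 genes of collagen crosslinking and elastic fibres, 5 were lower, 1 was higher, 13 were within 2-fold and 9 were undecided (median -0.25). Ltbp2, a protein of latent TGF-beta complexes and microfibrils, led with 3.34 CPM at baseline and 92.8 after TAC in the CT hearts, with 19.0 at baseline and 167 after TAC in the cKO hearts (-2.26). Fbln5 (-1.48), Eln (-1.18), which encodes elastin, Loxl3 (-1.11) and Ltbp3 (-1.08) were the others below. Members within 2-fold included Plod1 (ratio 0.965) and Plod3 (ratio 0.798), the lysyl hydroxylases, and Serpinh1 (ratio 1.21), the collagen chaperone. Emilin2 was higher (1.45).

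Matrix proteases and inhibitors went both ways, with 3 of 23 higher, 4 lower, 9 within 2-fold and 7 undecided. Mmp3, the stromelysin, had 61.2 CPM in cKO baseline beside 9.98 in CT TAC, and 31.9 in CT baseline beside 38.6 in cKO TAC (ratio 6.13, interval 3.76 to 10.5), so CT TAC was the lowest of the 4. Timp4, a metalloprotease inhibitor of the heart, had 64.5 CPM at baseline and 17.5 after TAC in the CT hearts, with 39.8 at baseline and 51.1 after TAC in the cKO hearts. Htra1, a secreted serine protease, had 75.2 CPM in cKO baseline beside 35.4 in CT TAC, and 84.1 in CT baseline beside 42.4 in cKO TAC. CT TAC was lowest for each of these as well. Timp1, another such inhibitor with partly shared reads, had 7.66 CPM at baseline and 47.4 after TAC in the CT hearts, with 64.8 at baseline and 100.1 after TAC in the cKO hearts. Its ratio of 1.37 (interval 1.03 to 1.82) was within 2-fold. Ctss (-1.61), a cathepsin of macrophages, Serpine2 (-1.21), Adamtsl2 (-1.07) and Adamts2 (-1.04), the procollagen peptidase, were lower.

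Fibroblast markers went with the matrix genes in part. Of 14 markers 7 were lower in cKO baseline, 6 were within 2-fold, 1 was undecided and none was higher (median -1.18). Their summed level was 4013 CPM at baseline and 6234 after TAC in the CT hearts, and 5121 and 7198 in the cKO hearts. Several of them are matrix genes named above, namely Col1a1, Col1a2, Lum, Mfap4 and Dcn. Among the others, Pdgfra, a receptor of fibroblasts, was within 2-fold. It had 52.6 CPM in cKO baseline beside 62.9 in CT TAC, and 51.9 in CT baseline beside 72.9 in cKO TAC. The transcription factor genes Tcf21 (-1.65) and Meox1 (-1.42) were lower. Gsn and Dpep1 were within 2-fold but leaned the other way. Their ratios were 1.37 (interval 1.32 to 1.43) and 1.54 (interval 1.23 to 1.92). Of the 14 differences 11 were below 0 and 3 above. In whole hearts fewer cells of a type and less RNA per cell cannot be told apart, and the part of fibroblast number in the matrix differences was not tested.

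Of 20 TGF-beta ligands and receptors 1 was higher, 2 were within 2-fold and 17 were undecided, and 3 were apart with libraries scaled to total reads. The share apart was 5%, near the 7.75% of all genes. The one higher member was Gdf15, a secreted stress cytokine. It had 2.59 CPM at baseline and 12.5 after TAC in the CT hearts, with 29.4 at baseline and 26.1 after TAC in the cKO hearts (ratio 2.35, interval 1.42 to 3.98). Tgfb2, undecided, had 36 reads in cKO baseline and 23 in CT TAC, and Tgfb1, also undecided, had 62 and 130.

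**Figure D4:**
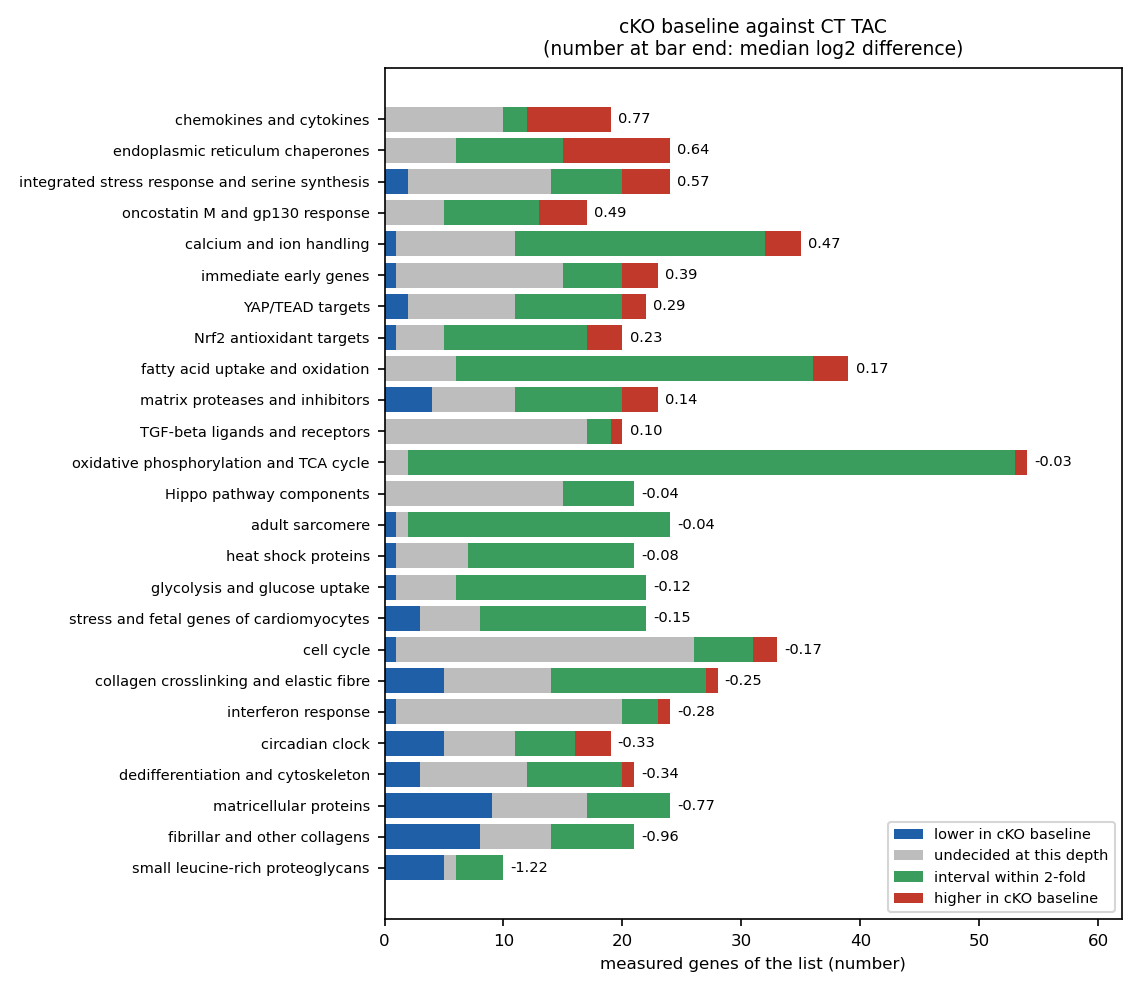
Number of measured genes in each of 25 pathway lists that were lower in cKO baseline than in CT TAC, undecided at this depth, within 2-fold, or higher, with the median log2 difference of the list at the end of its bar. The lists are ordered by median, from small leucine-rich proteoglycans at -1.22 to chemokines and cytokines at 0.77.

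Chaperones of the ER were the reverse of the matrix genes. These proteins fold and quality-check secreted and membrane proteins, and are induced together when unfolded protein builds up. Of 24 measured genes 9 were higher in cKO baseline than in CT TAC, 9 were within 2-fold, 6 were undecided and none was lower. The median was 0.64 and 23 of 24 differences were above 0. Against CT baseline the median was 0.05 in CT TAC and 0.82 in cKO baseline. Hspa5, which encodes the ER chaperone BiP, had 1963 CPM in cKO baseline beside 968 in CT TAC, and 1083 in CT baseline beside 641 in cKO TAC (ratio 2.03, interval 1.92 to 2.15). Hsp90b1, the ER form of Hsp90, had 440.0 CPM at baseline and 461 after TAC in the CT hearts, with 982 at baseline and 386 after TAC in the cKO hearts (ratio 2.13, interval 1.97 to 2.31). In both, cKO baseline was the highest library, and CT TAC lay close to CT baseline.

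Other members had larger ratios. Manf, a secreted ER stress protein, had 159.7 CPM in cKO baseline beside 48.9 in CT TAC, and 42.6 in CT baseline beside 32.6 in cKO TAC (ratio 3.26, interval 2.58 to 4.16). Hyou1, a large Hsp70-like chaperone, had 68.6 CPM at baseline and 69.4 after TAC in the CT hearts, with 187 at baseline and 38.1 after TAC in the cKO hearts (ratio 2.7, interval 2.2 to 3.32). Pdia4, a disulfide isomerase, had 233 CPM in cKO baseline beside 107 in CT TAC, and 74.9 in CT baseline beside 48.4 in cKO TAC (1.12). For Manf, Hyou1 and Pdia4 cKO TAC was the lowest library of the 4. Sdf2l1 (1.87), Syvn1 (1.64), the ubiquitin ligase of ER degradation, and Dnajb9 (1.46), a co-chaperone, were also higher. Herpud1, another protein of ER degradation, had 355 CPM at baseline and 94.3 after TAC in the CT hearts, with 207 at baseline and 105 after TAC in the cKO hearts. There CT baseline was highest. Calr (ratio 1.15) and Canx (ratio 1.28), the lectin chaperones, P4hb (ratio 1.12) and Pdia3 (ratio 1.49) were within 2-fold. The sensor genes Atf6 and Ern1 were undecided.

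The ER stress element, which is CCAAT followed after 9 bases by CCACG, was searched on both strands. It was found in 39 of 32851 promoter windows of 300 bases (0.119%). Of 20 chaperone genes with a promoter in the RefSeq set, 8 held it, namely 3 of the 7 higher ones and 5 of the 13 that were not apart. The 3 higher genes with a match are shown, as the 250 bases before the start from RefSeq (GRCm38.p6) with the element in capitals. The windows are chr2:34771840-34772089 on the plus strand for Hspa5, chr10:86705445-86705694 on the minus strand for Hsp90b1 and chr19:6046326-6046575 on the plus strand for Syvn1.
Hspa5: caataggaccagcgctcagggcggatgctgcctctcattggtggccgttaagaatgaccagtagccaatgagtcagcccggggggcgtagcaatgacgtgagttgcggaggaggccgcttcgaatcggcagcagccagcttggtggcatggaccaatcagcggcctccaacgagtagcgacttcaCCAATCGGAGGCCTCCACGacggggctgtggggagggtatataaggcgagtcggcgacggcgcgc
Hsp90b1: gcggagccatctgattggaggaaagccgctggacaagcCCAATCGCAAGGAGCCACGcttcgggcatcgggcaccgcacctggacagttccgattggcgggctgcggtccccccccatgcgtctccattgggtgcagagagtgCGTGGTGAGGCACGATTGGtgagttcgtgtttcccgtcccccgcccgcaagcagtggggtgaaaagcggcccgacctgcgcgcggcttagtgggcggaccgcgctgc
Syvn1: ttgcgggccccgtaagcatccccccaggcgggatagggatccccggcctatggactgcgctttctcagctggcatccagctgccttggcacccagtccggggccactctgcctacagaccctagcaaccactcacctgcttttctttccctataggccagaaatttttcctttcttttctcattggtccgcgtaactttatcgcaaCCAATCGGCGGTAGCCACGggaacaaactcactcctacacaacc
Hsp90b1 held 2 matches, one on each strand, and the others held 1. Calr and Canx, both within 2-fold, hold the element too.

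Among the 25 pathway lists chemokines and cytokines had the highest median. Of 30 chemokines and cytokines listed, 19 were measured and 11 were absent from the deposited values. Of the 19, 7 were higher in cKO baseline, 2 were within 2-fold, 10 were undecided and none was lower. The share apart was 36.8%, beside 7.75% of all genes. The median was 0.77, and against CT baseline it was 1.01 in cKO baseline and 0.31 in CT TAC. Ccl2, which draws monocytes, had 32 reads in cKO baseline, and 4 in CT baseline, 5 in CT TAC and 6 in cKO TAC (ratio 7.84, interval 3.03 to 25.8). Its neighbour in the family Ccl7 had 19 reads in cKO baseline, none in CT TAC and 3 in each other library, and was at least 7.76-fold higher. Cxcl13, which draws B cells, had 25 reads in cKO baseline, none in CT TAC, 4 in CT baseline and 1 in cKO TAC, and was at least 10.2-fold higher. For these 3 genes cKO baseline stood alone above the rest. Cxcl14 had 16.5 CPM in cKO baseline beside 2.0 in CT TAC, and 5.93 in CT baseline beside 3.26 in cKO TAC. It too was highest in cKO baseline. Ccl6 and Ccl9 differed, since CT baseline was about as high as cKO baseline. Ccl6 had 54 reads at baseline and 9 after TAC in the CT hearts, and 32 and 27 in the cKO hearts. Ccl9 had 12.6 CPM at baseline and 2.5 after TAC in the CT hearts, with 14.7 at baseline and 3.26 after TAC in the cKO hearts. All 7 rest on 9 to 32 reads in cKO baseline, so the sizes of these ratios are loosely set, and the seventh, Ccl12, had 9 reads against 1. All 12408 deposited genes were above 1 CPM in at least 2 libraries. Cxcl13 was above 1 CPM only in CT baseline and cKO baseline. Genes of few reads are thus kept partly by the libraries where they are high, and the counts and median of this list cover kept genes only. Il1b, Ccl5 and Cxcl1 had 4 reads or fewer in each library of the pair.

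**Figure D5:**
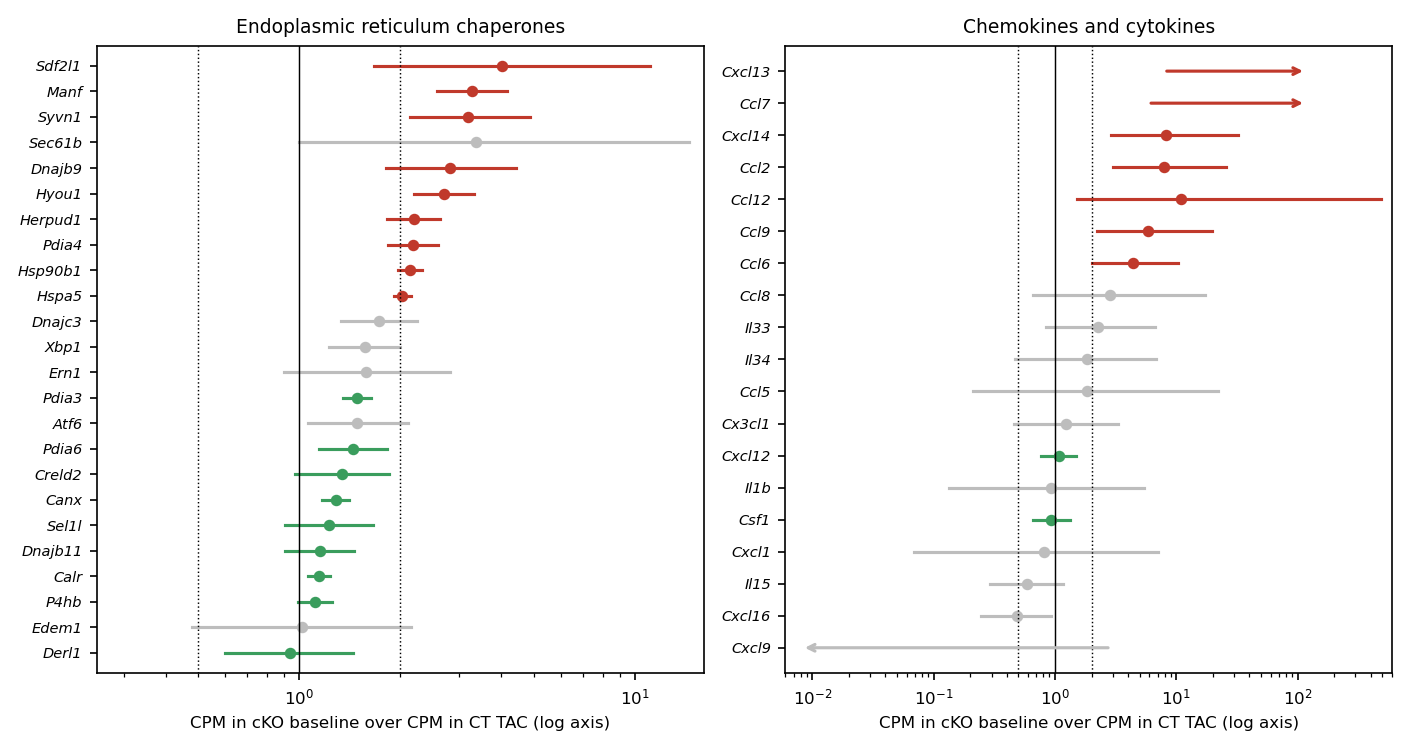
Ratio of CPM in cKO baseline to CPM in CT TAC (log axes of different range) for 24 ER chaperones and 19 chemokines and cytokines, with 95% counting intervals, red for higher, green for within 2-fold and grey for undecided. Dotted lines mark 2-fold, and arrows start at the bound of the interval for Cxcl13, Ccl7 and Cxcl9, which had 0 reads in 1 library. The 9 higher chaperones and 7 higher chemokines are in red, and no gene of either list was lower.

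Macrophage markers went with the chemokines in part. Of 20 markers 3 were higher, 1 was lower, 6 were within 2-fold and 10 were undecided (median 0.51). The higher ones were Itgam (1.52), Mgl2 (1.33) and Cd163 (1.24, partly shared reads), and the lower one was Ctss. Adgre1, which encodes F4/80, had 85.0 CPM in cKO baseline beside 49.9 in CT TAC, and 23.0 in CT baseline beside 46.8 in cKO TAC, undecided with a ratio of 1.7 (interval 1.31 to 2.23). The summed level of the 20 markers was 594 CPM at baseline and 875 after TAC in the CT hearts, and 1230 and 1153 in the cKO hearts. This sum was higher in both cKO libraries than in either CT library. None of the 20 macrophage or 14 fibroblast markers was at 0 reads in either library of the pair. The part of macrophage number in the chemokine differences was not tested.

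Genes of the oncostatin M and gp130 response were higher for 4 of 17, within 2-fold for 8 and undecided for 5, with a median of 0.49. One of them was Ccl2. Socs3, the feedback inhibitor of the pathway, had 16 reads in cKO baseline against 2 in CT TAC. Lcn2, an iron-siderophore binding protein, had 14.1 CPM at baseline and 9.48 after TAC in the CT hearts, with 48.9 at baseline and 38.1 after TAC in the cKO hearts (ratio 5.16). The receptor gene Osmr had 80.7 CPM in cKO baseline beside 34.9 in CT TAC, and 62.6 in CT baseline beside 70.7 in cKO TAC (ratio 2.31). In Osmr CT TAC stood below the other libraries. Serpina3n, an acute phase serpin from a family of close copies, was within 2-fold (ratio 1.73).

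Genes of the integrated stress response and serine synthesis split, with 4 of 24 higher, 2 lower, 6 within 2-fold and 12 undecided (median 0.57). Asns, the asparagine synthetase gene, had 8.15 CPM at baseline and 3.0 after TAC in the CT hearts, with 12.2 at baseline and 13.1 after TAC in the cKO hearts. Chac1, which degrades glutathione, had 7.95 CPM in cKO baseline beside 2.0 in CT TAC, and 7.78 in CT baseline beside 7.61 in cKO TAC. Both were lowest in CT TAC. Psat1, of serine synthesis, was higher on 11.5 reads against 1.5, partly shared with other genes, and Gdf15 was the fourth. Ddit4, an inhibitor of mTORC1, had 125 CPM at baseline and 121 after TAC in the CT hearts, with 43.4 at baseline and 89.2 after TAC in the cKO hearts. It was lower (-1.47), as was Nupr1 (-1.66). Atf4, the central factor of the response, was within 2-fold (ratio 1.55, interval 1.25 to 1.94).

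Immediate early genes were mostly undecided, 14 of 23, with 3 higher, 1 lower and 5 within 2-fold (median 0.39). Btg2 (1.70) and Myc (1.06) were higher on 23 reads each in cKO baseline, and Maff was at least 2.45-fold higher on 6 reads, against a part of 1 read that was shared. Dusp1, a phosphatase of MAP kinases, was lower (-1.35). Fos had 3 reads against 1.

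Of 24 adult sarcomere genes 22 were within 2-fold, 1 was lower and 1 was undecided (median -0.04). Most contractile, fuel and respiratory genes are abundant, and over all genes 84.9% of those with 100 to 1000 reads and 90.4% of those above 1000 reads were within 2-fold, so the counts of these lists within 2-fold are not particular to them. The adult alpha-myosin heavy chain Myh6 had a ratio of 0.802 (interval 0.794 to 0.81), and titin (Ttn, partly shared reads) of 0.956. Tnnc1, the slow and cardiac troponin C gene, was the exception with 3993 CPM in cKO baseline beside 9372 in CT TAC, and 3701 in CT baseline beside 4995 in cKO TAC, and CT TAC stood above the rest.

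Calcium and ion handling genes leaned to higher values in cKO baseline by their median, mostly with differences short of 2-fold. Of 35, 3 were higher, 1 was lower, 21 were within 2-fold and 10 were undecided. The share apart was 11.4%, not far from the 7.75% of all genes. Of the 35 differences 29 were above 0 and 6 below. The median was 0.47, and against CT baseline it was -0.65 in CT TAC and -0.18 in cKO baseline. Kcnk3, a background potassium channel, had 200.2 CPM at baseline and 67.4 after TAC in the CT hearts, with 169 at baseline and 68.0 after TAC in the cKO hearts (ratio 2.51, interval 2.03 to 3.1). Both TAC libraries lay below both baseline libraries. Kcnj5 (1.17) and Kcnq1 (1.10) were the other higher channels and Kcnd2 (-1.08), of the transient outward current, the lower one. The calcium pump gene Atp2a2 (partly shared reads) had 21077 CPM in cKO baseline beside 14550.0 in CT TAC, and 28783 in CT baseline beside 13658 in cKO TAC. The ryanodine receptor gene Ryr2 had 2787 CPM at baseline and 1598 after TAC in the CT hearts, with 2453 at baseline and 1472 after TAC in the cKO hearts. These were within 2-fold, with ratios of 1.45 and 1.54 and intervals above 1. Pln, the pump's inhibitor phospholamban, was at 1.76 (interval 1.69 to 1.84).

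Of 39 genes of fatty acid uptake and oxidation 30 were within 2-fold, 3 were higher, 6 were undecided and none was lower. The share apart was 7.69%, about that of all genes (7.75%). The median was 0.17, with -0.71 in CT TAC and -0.51 in cKO baseline against CT baseline. Pdk4, a kinase that inhibits pyruvate dehydrogenase, had 119.9 CPM in cKO baseline beside 117 in CT TAC, and 482 in CT baseline beside 290.4 in cKO TAC. The pair agreed within counting error at a ratio of 1.03 (interval 0.845 to 1.25), and CT baseline was highest. Ech1, an enoyl-CoA isomerase, showed the same with 3389 CPM at baseline and 1656 after TAC in the CT hearts, with 1687 at baseline and 1489.6 after TAC in the cKO hearts (ratio 1.02, interval 0.968 to 1.07). Cd36, the fatty acid transporter, had a ratio of 1.13 and Cpt1b, the mitochondrial gatekeeper of muscle, of 1.14. Above the loaded level were Ces1d, Angptl4 (1.35), an inhibitor of lipoprotein lipase, and Plin5 (1.06), a lipid droplet protein. Plin5 had 83.8 CPM in cKO baseline beside 39.9 in CT TAC, and 119 in CT baseline beside 71.2 in cKO TAC.

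Of 54 genes of oxidative phosphorylation and the TCA cycle 51 were within 2-fold, 1 was higher and 2 were undecided (median -0.03). The higher one was the complex I subunit gene Ndufb9, with 969 CPM at baseline and 455 after TAC in the CT hearts, with 1116 at baseline and 752 after TAC in the cKO hearts. Of 22 genes of glycolysis and glucose uptake 16 were within 2-fold, 1 was lower and 5 were undecided (median -0.12). The lower one was Ldha (-1.42, partly shared reads), lactate dehydrogenase A.

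Genes of dedifferentiation and the cytoskeleton gave 1 of 21 higher, 3 lower, 8 within 2-fold and 9 undecided, with a median of -0.34. Smooth muscle alpha-actin Acta2 had 594 CPM in cKO baseline beside 161 in CT TAC, and 202 in CT baseline beside 490.0 in cKO TAC (ratio 3.68, interval 3.24 to 4.19), so both cKO libraries lay above both CT libraries. Actg2, the enteric smooth muscle actin, had 31.9 CPM at baseline and 37.4 after TAC in the CT hearts, with 6.12 at baseline and 1.63 after TAC in the cKO hearts, the opposite order. The uncertainty from shared actin sequence stated for Acta1 holds for both. Other smooth muscle and pericyte markers did not follow Acta2. Of 12 mural markers it was the only one higher, 8 were within 2-fold, 3 were undecided and the median was 0.09, with Tagln, which encodes transgelin, undecided at -0.91 and Myh11, the smooth muscle myosin, undecided at 0.59. Anxa1 (-1.40) and Tagln2 (-1.04) were lower. Vim, the vimentin gene, was within 2-fold (ratio 0.556, interval 0.511 to 0.604).

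Markers of other cells gave these values. Of 15 endothelial markers 10 were within 2-fold, 4 were undecided and 1, Fabp4 (-1.43), was lower, and the median was 0.00. Of 9 atrial markers 3 were within 2-fold, Dkk3 was lower on 1 read against 12 and 5 were undecided, and the atrial light chain Myl4 had 10 reads in CT TAC and 3 in cKO baseline. Among markers measured, 2 of 14 for lymphocytes, 5 of 8 for neutrophils, 4 of 10 for Schwann and neural cells, 3 of 9 for adipocytes and 2 of 9 for mesothelium, none was apart.

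The opposite diagonal, cKO TAC against CT baseline, shares no library with the pair. In it 1369 genes (11.0%) were apart. Of the 846 that were higher in cKO TAC, 147 were lower in cKO baseline than in CT TAC, 28 were higher, 120 were within 2-fold and 551 were undecided, with a median log2 difference of -0.38. Of the 523 that were lower in cKO TAC, 67 were higher in cKO baseline than in CT TAC, 14 were lower, 149 were within 2-fold and 293 were undecided, with a median of 0.35. In all 256 of 1369 (18.7%) were apart in the pair, beside 7.75% of all genes. Fmod and Thbs4 had the lowest log2 differences in the pair among these genes with at least 20 reads. Il17ra, a receptor of interleukin 17, had the highest, with 22 reads in cKO baseline and 3 in CT TAC, and 20 in CT baseline and 31 in cKO TAC.

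Outside the lists, the genes furthest apart in the pair came from several families. Higher in cKO baseline were Ckmt1, the ubiquitous mitochondrial creatine kinase, with 32 reads in cKO baseline and 4, 5 and 5 in CT baseline, CT TAC and cKO TAC, and the kelch protein gene Klhdc7a with 25 beside 4, 4 and 5. In both, cKO baseline stood alone above the other libraries. Ppp1r2, an inhibitor of protein phosphatase 1, had 69.7 CPM in cKO baseline beside 11.5 in CT TAC, and 52.3 in CT baseline beside 44.6 in cKO TAC (ratio 6.07), and the solute carrier gene Slc22a23 had 25 reads in cKO baseline and 5 in CT TAC, with 26 in CT baseline and 10 in cKO TAC. For these it was CT TAC that was low. Rps27a, a ubiquitin fusion with a ribosomal protein, had 95.6 CPM at baseline and 21.0 after TAC in the CT hearts, with 149 at baseline and 70.2 after TAC in the cKO hearts, but has processed copies in the genome and is uncertain. Lower in cKO baseline were Eps8l1, an actin regulator, with 1 read in cKO baseline and 26 in CT TAC, and 31 in CT baseline and 4 in cKO TAC. Klk8, a secreted serine protease, had 4, 45, 32 and 42 reads in that order. Ackr4, a scavenging chemokine receptor, had 4, 50, 5 and 27. Eps8l1 was low in both cKO libraries. Klk8 was low in cKO baseline alone, while Ackr4 was low in both baseline libraries and higher in both TAC libraries. Over the 598 distinct genes of the pathway lists, 49 were higher, 54 lower, 282 within 2-fold and 213 undecided. Over all 12408 genes 3.47% were higher and 4.28% lower, and a list with shares near these is not set off from the rest.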

How the data were processed

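Values were deposited as log2 CPM for 12408 genes in 4 libraries, 1 mouse each. Per the submitters' processing notes, which give no versions, the authors used CASAVA, HISAT2 and edgeR with mm10. The counter and the gene annotation are not named in the labels. Deposited values lie on a grid of read steps, so reads were recovered: 88.6% to 89.0% of values per library came out whole within 0.01 read, and 2449 genes (19.7%) held part reads, called shared. About 1 read, scaled to library size, had been added before the logarithm.

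Classes used the 2-fold threshold and 95% Clopper-Pearson intervals of the read ratio. Intervals and floors cover counting error only, and reads without molecular identifiers are not independent molecules. With 1 library a side no test stands behind the classes, and the limma fit given below does not measure spread between mice. The 2 libraries and the 38 gene lists were chosen with earlier results of these data known, so counts over lists are descriptions. Medians of a list come from the deposited log2 differences. Named genes were the 10 furthest apart in each direction with at least 20 reads in the higher library, the 20 leading load genes in each direction by the same minimum, up to 4 apart and up to 4 within 2-fold from each list, Sav1, and other list members where the list is described. A gene that the rule names is not reported here. The 3 higher ER genes with a promoter match and the genes of the opposite diagonal followed rules of their own, stated beside them. Promoters came from RefSeq (GRCm38.p6) for 9522 of 12408 genes. Python 3.11.15, numpy 2.4.6, scipy 1.17.1 and pandas 2.3.3 were used, with limma 3.58.1 in R 4.3.3 as an alternative. The classification was also run on counts simulated with counting error alone. That run checks the computation and cannot show how the classes hold with spread between mice.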

Additional observations from a re-analysis of the deposited data

Results flagged for a closer look

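In 4 of the named genes TAC went with opposite changes in the 2 genotypes, each past 2-fold with a counting interval that excluded 1. Each change compares 1 library with 1 library, and the difference between genotypes was not tested. For Lrrc52, an auxiliary subunit of potassium channels, the log2 difference of CT TAC minus CT baseline was -5.042 and that of cKO TAC minus cKO baseline was 2.607. For Gm20594 these differences were -3.759 and 1.643. For Cdo1, the cysteine dioxygenase gene, they were -2.695 and 1.975. For the zinc finger gene Zfp771 they were -2.657 and 1.609.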

How the results depend on the processing

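The 962 genes apart in the pair became 2069 at 1.5-fold and 331 at 3-fold, 373 with a mean of at least 20 CPM, and 431 with 5 CPM added before the logarithm. The higher genes numbered 934, 152, 135 and 169 under those settings and the lower genes 1135, 179, 238 and 262. With the interval held within 1.5-fold, 1682 genes were within that fold. At 3-fold, 531 load genes were left, of which 136 were apart in cKO baseline and 23 within 2-fold. With the interval held within 1.5-fold, a setting added after seeing the data, 28 load genes were within. At 3-fold the opposite diagonal held 558 genes, of which 72 were apart in the pair. Scaling to total reads, median-of-ratios scaling, a mean of at least 5 CPM and leaving out genes with part reads gave 984, 961, 836 and 809 apart genes. Under total-read scaling the medians of the Hippo, adult sarcomere, oxidative phosphorylation, heat shock and skeletal muscle lists changed sign, and under median-of-ratios scaling that of the endothelial list did. None of the 118 named genes called apart changed direction under total-read scaling, median-of-ratios scaling or 5 CPM added. That outcome was fixed in advance for genes at least 2-fold apart. The 2 scalings moved the median log2 difference by 0.084 and -0.0048, and CPM added to both sides cannot reverse a difference. Of 729 settings of named genes, 46 put the log2 difference outside the counting interval of the gene. Of 125 named genes that were not apart, 11 changed sign in a setting, each with a log2 difference within 0.0791 of 0. The number of apart genes in a list moved by over 1.5 times for TGF-beta (1 to 3) and heat shock (1 to 2) under total-read scaling and for atrial markers (1 to 0) with a mean of at least 5 CPM. In limma fitted over all 4 libraries as genotype plus surgery, 5 genes passed a Benjamini-Hochberg adjusted p of 0.05, 2 higher (Acta2 and Rps27a) and 3 lower (Wisp2, Fibin and Ubl5), beside 1359 at an unadjusted p under 0.05. That fit assumes that load and genotype add, and its contrast equals the difference of the pair. Its 1 residual degree of freedom is the departure from that addition. Spread between mice does not enter it, so these p-values do not measure such spread. No paired analysis was possible because each group holds 1 library and the labels give no replicate numbers. No library could be left out, since each side of the pair is 1 library. Genes under about 30 reads could seldom be placed within 2-fold.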

Other observations

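Clock genes were apart in both directions. Of 19 measured, 3 were higher in cKO baseline than in CT TAC, 5 were lower, 5 were within 2-fold and 6 were undecided, with a median log2 difference of -0.33. Arntl, the activator of the clock also known as Bmal1, had 34.9 CPM in cKO baseline beside 11.5 in CT TAC, and 58.2 in CT baseline beside 26.9 in cKO TAC, with partly shared reads. Npas2 (1.40), which pairs with it, and Nfil3 (1.04) were higher as well. Dbp, an output factor that peaks at the opposite phase, had 9.64 CPM at baseline and 76.9 after TAC in the CT hearts, with 17.7 at baseline and 34.8 after TAC in the cKO hearts. Per3 (-1.77, partly shared reads), Rora (-1.55), Tef (-1.23) and Nr1d2 (-1.22) were lower. The labels give no time of collection, and its part in these values was not tested.

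Of 33 cell cycle genes 25 were undecided, 5 were within 2-fold, 2 were higher and 1 was lower (median -0.17). The share apart was 9.09%, near the 7.75% of all genes. Cdk1, the mitotic kinase, had 3.67 CPM in cKO baseline beside 29.5 in CT TAC, and 3.71 in CT baseline beside 20.1 in cKO TAC, so both TAC libraries lay above both baseline libraries. Cdkn1a (1.28), which encodes the inhibitor p21, and the cyclin gene Ccnd3 were higher. Of 20 Nrf2 antioxidant targets 3 were higher, 1 was lower, 12 were within 2-fold and 4 were undecided (median 0.23). Hmox1 (1.12), the haem oxygenase gene, G6pdx (1.17) and Gsta3 (1.68) were higher and Txn1 (-1.14), which encodes thioredoxin, was lower. Of 24 interferon response genes 19 were undecided, 3 were within 2-fold, Gbp6 was higher and Gbp3 (-1.11) lower, both from a family of close copies (median -0.28). In that list 8.33% were apart, again near the share of all genes. Of 21 heat shock proteins 14 were within 2-fold, 6 were undecided and Hspa8, the constitutive Hsp70, was lower at -1.09 (median -0.08). Among 5 erythroid markers the near-identical globin genes Hbb-bs and Hbb-bt were higher, 1 was lower, 1 was within 2-fold and 1 was undecided, and the sum of the 5 was 1110 CPM at baseline and 765 after TAC in the CT hearts, and 1576 and 2256 in the cKO hearts. Of 10 skeletal muscle markers measured, Acta1 was lower, 1 was within 2-fold and 8 were undecided.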
